A study of Mus musculus with 8 samples.

Results

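The interferon-stimulated genes are genes whose transcription rises when a cell senses type I or type II interferon. A list of 43 such genes was followed in mouse bone marrow-derived dendritic cells (BMDCs), 1 probe set per gene, taking among the probe sets annotated with a single symbol the one with the highest mean log2 signal over the 8 arrays. Of the 43 genes, 41 were measured in this way, out of 18193 genes and 45037 probe sets in all. The other 2 genes were *Isg15*, whose probe set also carries a second symbol, and *Ifi44*, for which no probe set was used here. The cells were immature DCs grown from the bone marrow of female BALB/c mice for 9 days with 200 U/mL GM-CSF, the growth factor that drives marrow progenitors toward DCs. They received 75 µg/mL [BF/S+L/Ep], a butanol fraction of a stem and leaf extract of *Echinacea purpurea* given in DMSO as vehicle, for 12 h or 4 h. The vehicle controls received 0.1% DMSO for 12 h or 4 h. Each of the 4 groups has 2 Affymetrix arrays that cover the mouse genome, which the study describes as replicate cell cultures and whose marrow donors are not given in the sources used here, so p-values measure the spread between these samples. The study asked how the extract changes transcription in immature DCs.

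Type I interferon binds a receptor made of IFNAR1 and IFNAR2, and the signal reaches the nucleus through the complex ISGF3, which holds STAT2 and IRF9. ISGF3 binds the interferon-stimulated response element (ISRE) in the promoters of antiviral genes. Type II interferon (IFN-γ) acts on the gamma-activated site (GAS) of genes such as *Irf1*. In DCs many of these genes are already transcribed at rest, and ISRE elements are also read by IRF7 and other members of the IRF family.

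Promoter windows from 250 bases before to 50 bases after the annotated start (RefSeq, GRCm38.p6) were found for 34 of the 43 genes. The ISRE core was searched as GAAANNGAAA on both strands, and the GAS as TTCNNNGAA, which reads the same on both strands. The ISRE core was in 16 of these 34 genes (47.1%), against 3.99% of the 27025 genes in the table (1131 of 32851 windows, 3.44%). The GAS letters were in 10 of the 34 (29.4%), against 9.55% of all genes (8.30% of windows). The 250 bases before the start are shown for the 4 genes that passed the test in any comparison below and have a window, so that the letters can be read beside their signals. Capitals mark the ISRE core or the GAS letters.
Irf1: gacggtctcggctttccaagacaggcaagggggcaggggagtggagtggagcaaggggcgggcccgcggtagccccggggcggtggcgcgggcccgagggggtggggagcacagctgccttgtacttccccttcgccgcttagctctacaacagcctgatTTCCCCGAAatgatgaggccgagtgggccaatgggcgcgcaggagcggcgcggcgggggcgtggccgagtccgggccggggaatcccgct
Oas1a: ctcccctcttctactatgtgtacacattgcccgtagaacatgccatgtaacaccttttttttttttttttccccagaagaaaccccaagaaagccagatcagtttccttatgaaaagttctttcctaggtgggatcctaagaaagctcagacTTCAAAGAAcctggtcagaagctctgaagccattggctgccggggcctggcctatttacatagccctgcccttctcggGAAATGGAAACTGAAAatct
Rsad2: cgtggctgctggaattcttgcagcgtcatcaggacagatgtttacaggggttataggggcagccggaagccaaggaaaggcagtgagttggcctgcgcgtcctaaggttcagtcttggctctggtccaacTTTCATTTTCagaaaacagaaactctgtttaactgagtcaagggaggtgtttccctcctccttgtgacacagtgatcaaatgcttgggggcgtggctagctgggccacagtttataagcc
Cxcl10: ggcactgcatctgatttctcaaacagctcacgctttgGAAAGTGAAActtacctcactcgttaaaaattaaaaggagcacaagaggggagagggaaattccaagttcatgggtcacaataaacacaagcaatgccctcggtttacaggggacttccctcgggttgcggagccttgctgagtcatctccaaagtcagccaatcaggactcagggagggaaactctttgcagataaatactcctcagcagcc
The *Irf1* window (chr11:53769764-53770013, plus strand, the first of 2 listed) held 1 GAS match beginning 90 bases before the start. The *Oas1a* window (chr5:120907526-120907775, minus strand) held a GAS match 98 bases before the start and a pair of ISRE cores that overlap each other, at 20 and 14 bases. The *Rsad2* window (chr12:26456453-26456702, minus strand) held 1 ISRE core, on the opposite strand, at 120 bases. The *Cxcl10* window (chr5:92348890-92349139, minus strand) held 1 ISRE core at 213 bases. An ISRE core and a GAS match overlapped each other in *Bst2*. A match is a string of letters and not a measured binding site.

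**Figure D1:**
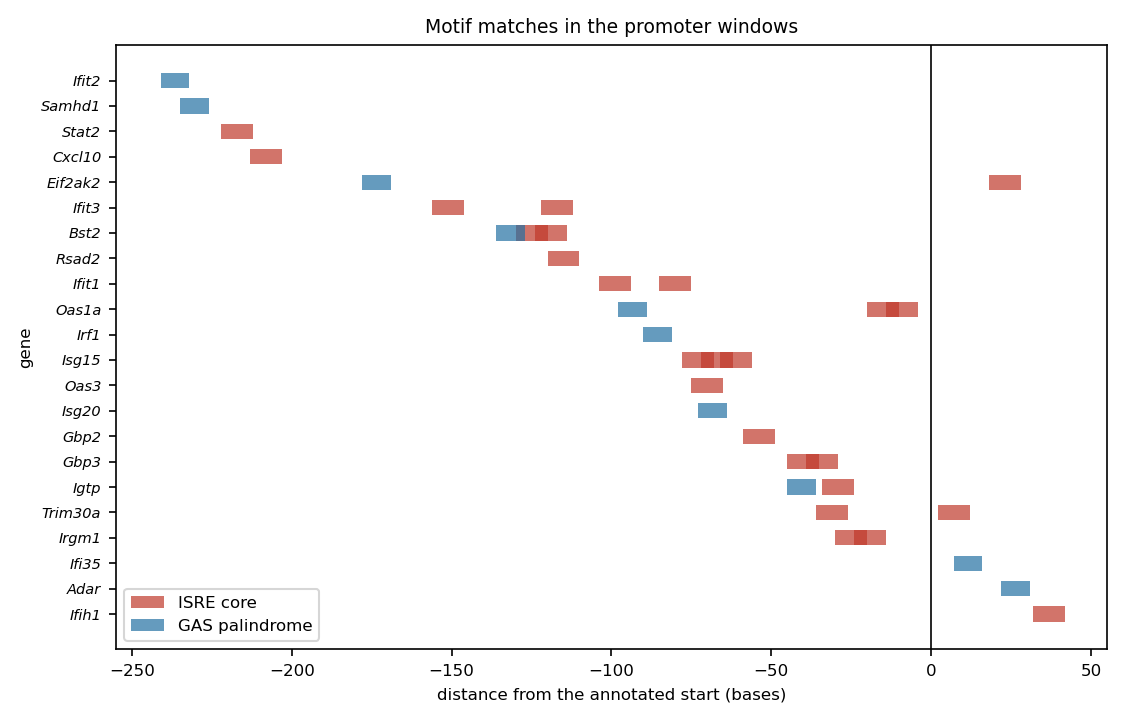
Matches of the ISRE core (red) and of the GAS letters (blue) in the promoter windows of the genes that had any, against the distance from the annotated start in bases; darker stretches are overlapping matches. Most matches lie before the start, with *Oas1a* at 20 and 14 bases and *Cxcl10* at 213 bases before it.

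The genes were expressed in these cells with and without the extract. As a background reference each array had its own limit, the signal under which 95% of 83 probe sets of sensory (odorant, pheromone and taste) receptor genes lay, and it ranged between 66.7 and 107.1. Of the 41 genes, 39 were above it on all 8 arrays, *Mx2* on 7 and *Cxcl9* on 3, while 59.7% of all genes passed it on 4 arrays or more. The mean signal over the 8 arrays exceeded 1000 for 24 genes and was below 500 for 10. Replicate arrays were close: the median gap between replicates of a gene was 0.12 on the log2 scale at 12 h in treated DCs and 0.12 in vehicle controls, and at 4 h it was 0.18 in treated DCs and 0.14 in vehicle controls. The gap passed 1, or 2-fold, for *Cxcl9* in treated DCs at 4 h and for *Mx2* in vehicle controls at 12 h. The array of vehicle control replicate 1 at 12 h had the highest reference, 107.1.

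All 16 DC markers measured passed the reference on 4 arrays or more, among them *Itgax* (CD11c) and *Cd74*. Their summed signal was 183200 to 183670 in treated DCs at 12 h, against 177060 to 186450 in vehicle controls. At 4 h it was 182870 to 192710 in treated DCs and 177100 to 178930 in vehicle controls, without overlap. Plasmacytoid DCs are the main makers of type I interferon. Of 8 of their markers measured, 6 were above the reference, but *Siglech*, a defining one, was above it on no array. Their summed signal was 2658 to 2959 in treated DCs at 12 h, against 2446 to 2711 in vehicle controls, and at 4 h 2120 to 2516 in treated DCs, against 2441 to 2559 in vehicle controls. The macrophage list had 9 of 10 markers above the reference, the neutrophil list 3 of 8, the T and NK cell list 2 of 10, the B cell list 1 of 6, and the mast cell list 1 of 7. Each sum took only the markers above the reference on 4 arrays or more, so the mast cell sum was 1 gene and the T and NK cell sum 2. Of these 5 lists and that of plasmacytoid DCs, 4 had summed signals that did not overlap between the groups at 12 h, at 4 h or at both. For scale, 16.6% of single genes above the reference lay higher in treated DCs without overlap at 12 h, and 22.1% lower. At 4 h these shares were 15.7% and 17.4%. The T and NK cell sum was 363 to 411 in treated DCs at 12 h, against 302 to 342 in vehicle controls, and 173 to 207 at 4 h in treated DCs, against 219.5 to 279 in vehicle controls. The mast cell sum was 366 to 389 in treated DCs at 12 h, against 325 to 334 in vehicle controls. The neutrophil sum was 2544 to 2842 in treated DCs at 12 h, against 3002 to 3018 in vehicle controls. The macrophage sum was 56860 to 60048 in treated DCs at 4 h, against 60997 to 62482 in vehicle controls. Their part in the results below was not tested, and in such bulk samples a change in the number of cells of a type and a change in RNA per cell cannot be told apart. The ratio of 3' to 5' probe sets, a measure of RNA quality, was 0.65 to 0.76 for *Gapdh* and 1.18 to 1.26 for *Actb*.

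The first comparison was [BF/S+L/Ep] against DMSO. Most of the interferon-stimulated genes lay higher in treated DCs by a small amount. The log2 fold change was above 0 in 34 of 41 genes at 12 h, in 34 of 41 at 4 h, and in 35 of 41 for the average of both times. Its median was 0.21 at 12 h, 0.13 at 4 h and 0.22 for the average. Over all 45037 probe sets the medians were -0.03, -0.02 and -0.02, and over the 10857 genes above the reference they were -0.02, -0.01 and -0.02. Of those 10857 genes, 4979 had a log2 fold change above 0 at 12 h, 5132 at 4 h and 4961 for the average.

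Single genes were tested with limma on log2 signals, adjusting p over all probe sets. For the average of both times 2 genes rose, *Usp18* and *Rsad2*, and none fell, while 0.0888% of all probe sets rose and 0.0178% fell. At 12 h alone and at 4 h alone no gene passed limma's adjusted p of 0.05. Of all probe sets, 0.0155% passed as higher and 0.00444% as lower for the 12 h arrays, against 0.00444% and 0% for those of 4 h. At an unadjusted p under 0.05, 16 genes were higher and 0 lower at 12 h (2.62% and 3.34% of all probe sets). The same limit left 5 higher against 1 lower gene for the 4 h arrays (2.49% and 2.48%), the lower one being *Cxcl9*, under the reference in both groups, and 15 against 1 for the average (3.20% and 3.88%).

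With 2 arrays a group, both treated arrays lay above both control arrays in 23 of the 41 genes at 12 h, where 16.6% of genes above the reference did so, and in 14 at 4 h, where 15.7% did. Of these, 9 did so at both times (4.70% of genes above the reference). On the probe sets used, they were *Irf1*, *Usp18*, *Dhx58*, *Irgm1*, *Ifi47*, *Gbp2*, *Rsad2*, *Rtp4* and *Cxcl10*. Both treated arrays lay below both control arrays in 4 genes at 12 h (22.1% of genes above the reference) and in 2 at 4 h (17.4%), besides *Cxcl9*, which was under the reference in both groups there. Only *Trim25* and *Bst2* did so at both times (5.37%).

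**Figure D2:**
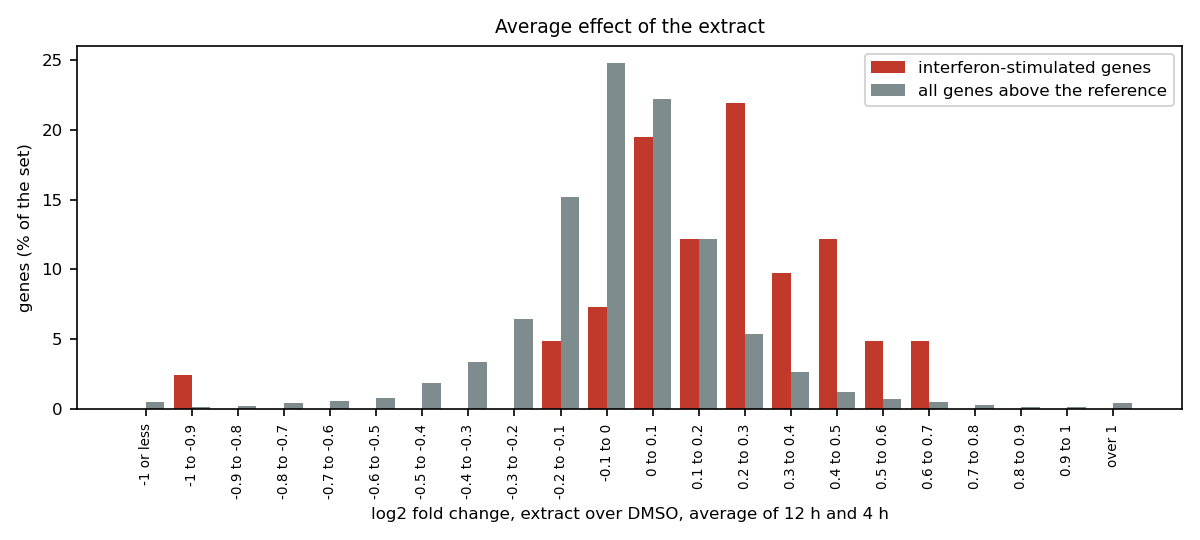
Share of the 41 interferon-stimulated genes (red) and of the 10857 genes above the reference (grey), in percent of each set, by log2 fold change of [BF/S+L/Ep] over DMSO averaged over 12 h and 4 h. The interferon-stimulated genes sit mostly to the right of 0, with a median of 0.22, and the gene between -1 and -0.9 is *Cxcl9*, whose groups were both under the reference at 4 h.

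*Usp18* encodes the protease that removes ISG15 from its target proteins and also restrains the type I interferon receptor. Its signal was 2884 and 3317 in treated DCs, against 1942 and 2064 in vehicle controls at 12 h. At 4 h it was 2533 and 2758 in treated DCs, against 1767 and 1641 in vehicle controls. The groups did not overlap at either time. The average log2 fold change was 0.63 (95% interval 0.46 to 0.80, 1.55-fold, limma adjusted p = 0.00862). It was 0.63 at 12 h (adjusted p = 0.123) and 0.63 at 4 h (adjusted p = 0.203). The average lost the call without vehicle control replicate 1 at 4 h (adjusted p = 0.0610), vehicle control replicate 2 at 4 h (0.0933), vehicle control replicate 1 at 12 h (0.0839) or treated replicate 2 at 12 h (0.0754), and its log2 fold change stayed between 0.58 and 0.68.

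*Rsad2* encodes viperin, an enzyme that makes a chain-terminating nucleotide analogue. Its signal was 1516 and 1483 in treated DCs, against 872 and 1053 in vehicle controls at 12 h. At 4 h it was 2525 and 2422 in treated DCs, against 1421 and 1675 in vehicle controls. The treated arrays were higher at both times, without overlap. The average log2 fold change was 0.66 (95% interval 0.47 to 0.86, 1.58-fold, limma adjusted p = 0.0128). It passed without vehicle control replicate 2 at 12 h (adjusted p = 0.0408), and missed the threshold when any of the other 7 arrays was left out (0.0510 to 0.109). Both *Usp18* (0.495) and *Rsad2* (0.504) lost the call when the spread was moderated without the intensity trend, which called no probe set at all. A second probe set of *Rsad2* had an average log2 fold change of 0.71 (adjusted p = 0.065) and another of 0.49 (adjusted p = 0.331). *Rsad2* and *Cmpk2*, which encodes a mitochondrial nucleotide kinase, are neighbouring genes, and *Cmpk2* averaged 0.12 (adjusted p = 0.867).

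**Figure D3:**
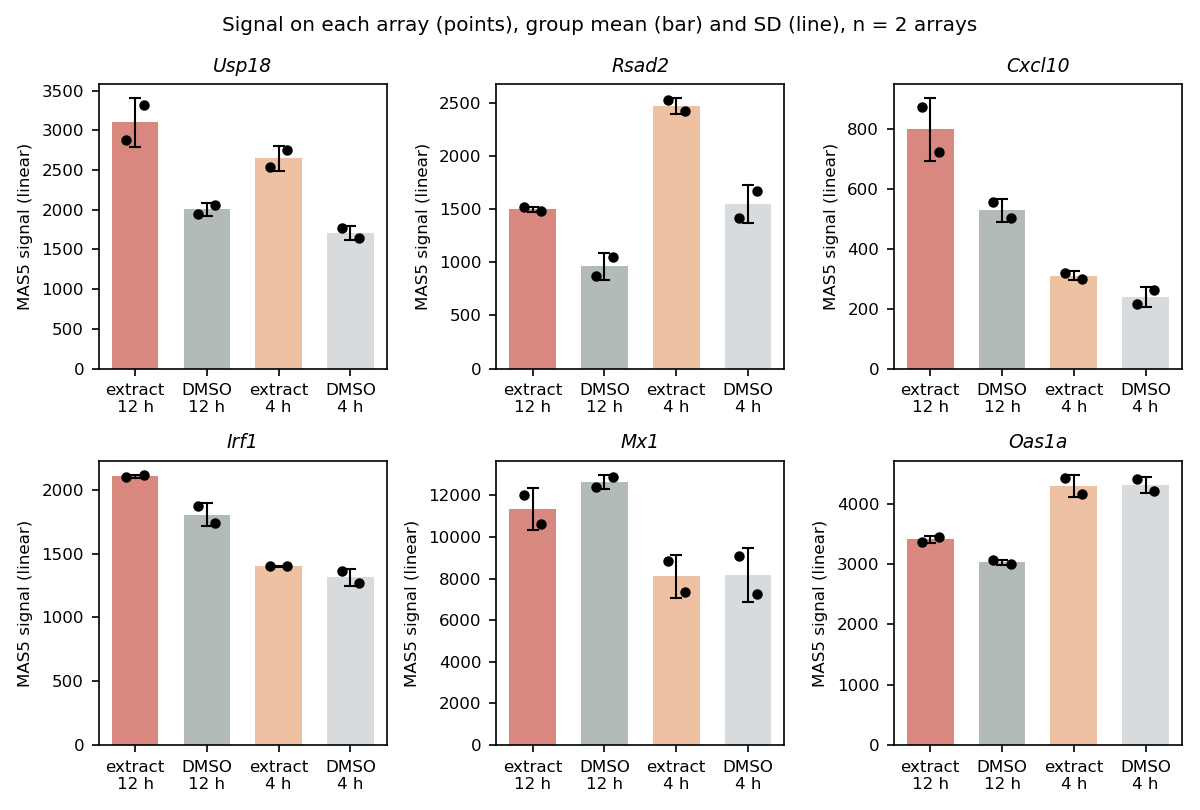
MAS5 signal on the linear scale of the 6 genes that passed the test in any comparison, for [BF/S+L/Ep] (extract) and DMSO at 12 h and at 4 h; points are single arrays, bars the mean and lines the SD (n = 2 arrays a group). Treated arrays of *Usp18* and *Rsad2* lie above their controls at both times, with 2884 and 3317 against 1942 and 2064 for *Usp18* at 12 h.

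The transcription factors carry the interferon signal into the nucleus. On the probe sets used, all 4 measured were higher in treated DCs at 12 h without overlap, beside 16.6% of genes above the reference. Of the 4, 2 had an unadjusted p under 0.05 (2.62% of all probe sets as higher), *Irf7* and *Irf9*. None passed the adjusted test. *Irf7*, the factor that amplifies interferon transcription, gave 737 and 925 in treated DCs, against 519 and 559 in vehicle controls at 12 h (log2 fold change 0.62, adjusted p = 0.566). At 4 h its signal was 634 and 773 in treated DCs, against 683 and 521 in vehicle controls, with the 2 groups overlapping. *Irf9*, the DNA-binding part of ISGF3, gave 1389.8 and 1513 in treated DCs, against 1046 and 1038 in vehicle controls at 12 h (log2 fold change 0.48, adjusted p = 0.505). *Stat2* had a gap between its treated arrays at both times. Its signal at 12 h was 378 and 550.1 in treated DCs, against 336 and 363 in vehicle controls. At 4 h it was 355 and 662 in treated DCs, against 529 and 338 in vehicle controls. Another probe set of *Stat2* gave 369 and 219 in treated DCs, against 299 and 187 in vehicle controls at 12 h, with overlap. At 4 h the log2 fold change of that probe set was -0.03. For *Irf1* the log2 fold change was 0.22 at 12 h and 0.09 at 4 h (adjusted p = 0.85 and 1).

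The interferon-inducible GTPases guard vacuoles that hold pathogens. All 5 were higher at 12 h without overlap (16.6% of genes above the reference) and with an unadjusted p under 0.05 (2.62% of all probe sets). None passed the adjusted test. Their median log2 fold change was 0.47 at 12 h and 0.20 at 4 h. *Igtp* (IRGM3), an immunity-related GTPase, gave 586 and 627 in treated DCs, against 379 and 341 in vehicle controls at 12 h (log2 fold change 0.75, 95% interval 0.34 to 1.17, adjusted p = 0.441). At 4 h its signal was 460.1 and 630.3 in treated DCs, against 432 and 508 in vehicle controls, with overlap. *Gbp2*, a guanylate-binding protein, gave 1526 and 1553 in treated DCs, against 1129 and 1095 in vehicle controls at 12 h (log2 fold change 0.47, adjusted p = 0.383). The gap between the groups was smaller at 4 h, 1276 and 1258 in treated DCs, against 1201 and 1215 in vehicle controls. Another probe set of *Gbp2* had log2 fold changes of 0.29 at 12 h, without overlap, and 0.03 at 4 h, with overlap. *Ifi47* gave 1313 and 1442 in treated DCs, against 1012 and 934 in vehicle controls at 12 h and 1157 and 1408 in treated DCs, against 1064 and 1018 in vehicle controls at 4 h, and its average log2 fold change was 0.40 (adjusted p = 0.249). *Irgm1* had log2 fold changes of 0.30 at 12 h and 0.26 at 4 h, and *Gbp3* of 0.33 and 0.13.

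The OAS family makes or, for the OAS-like proteins, is related to the makers of the short oligoadenylates that switch on RNase L. All 5 genes were higher at 12 h without overlap, as were 16.6% of genes above the reference. Of the 5, 4 had an unadjusted p under 0.05 (2.62% of all probe sets as higher), but none passed the adjusted test. At 4 h all 5 overlapped between the groups. *Oasl1*, which in mice restrains the translation of *Irf7*, gave 535 and 612 in treated DCs, against 419.6 and 345 in vehicle controls at 12 h (log2 fold change 0.59, adjusted p = 0.768). *Oasl2* gave 849 and 832 in treated DCs, against 573 and 626 in vehicle controls (log2 fold change 0.49, adjusted p = 0.685). *Oas2* gave 314 and 345 in treated DCs, against 233 and 224 in vehicle controls at 12 h. *Oas3* gave 466 and 358 in treated DCs, against 291 and 309 in vehicle controls. *Oas1a* had the smallest difference of the family at 12 h, a log2 fold change of 0.17.

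The IFIT proteins bind foreign RNA ends. *Ifit1* was 949 and 701 in treated DCs, against 565 and 626 in vehicle controls at 12 h (log2 fold change 0.46, adjusted p = 0.812). *Ifit3* was 637 and 722 in treated DCs, against 508 and 416 in vehicle controls at 12 h, but at 4 h 396 and 548 in treated DCs, against 528 and 489 in vehicle controls, with log2 fold changes of 0.56 and -0.12. *Ifit2* had its gap at 4 h (0.41) rather than at 12 h (0.13), and neither passed the test.

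Among the sensors of foreign nucleic acid the gap was widest for *Dhx58*, which encodes LGP2, the regulator of the RIG-I-like receptors, though it missed the threshold. At 4 h it gave 491 and 506 in treated DCs, against 284 and 269 in vehicle controls (log2 fold change 0.85, 95% interval 0.45 to 1.25, adjusted p = 0.508). At 12 h it gave 372 and 387 in treated DCs, against 325 and 358 in vehicle controls, a log2 fold change of 0.15. The other probe sets of *Dhx58* were low, with signals of 53.2 to 171.5 on all arrays, and with the mean of its probe sets the log2 fold change was 0.29 at 4 h. On the probe sets used, *Ifih1* (MDA5), *Zbp1* and *Adar* lay between -0.003 and 0.19 on the log2 scale at the 2 times. Other probe sets of *Adar* had 0.38 at 12 h, without overlap, and 0.40, with overlap. At 4 h these had 0.31 and -0.02, with overlap. Another of *Zbp1* had 0.04 at 12 h and 0.25 at 4 h, with overlap. On the probe set used, *Eif2ak2* (PKR) was lower at 12 h (log2 fold change -0.23, adjusted p = 0.888). It gave 952 and 1105 in treated DCs, against 1293 and 1123 in vehicle controls. Its other probe sets went the other way at 12 h, with log2 fold changes of 0.42, without overlap, and 0.05, with overlap. None of the other probe sets of these sensors passed the adjusted test.

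The remaining effectors were mostly level between the groups on the probe sets used. *Mx1*, a GTPase that blocks orthomyxoviruses, is carried in a defective form by many inbred mouse strains. Its log2 fold change was -0.16 at 12 h and -0.01 at 4 h. At 12 h *Mx1* gave 12042 and 10630 in treated DCs, against 12412 and 12902 in vehicle controls, lower without overlap. *Mx2* gave 293 and 174 in treated DCs, against 144 and 96.6 in vehicle controls at 4 h (log2 fold change 0.94, adjusted p = 0.997) and 240.1 and 224 in treated DCs, against 338 and 149 in vehicle controls at 12 h, and its replicates differed widely. *Samhd1*, which hydrolyses dNTPs, had log2 fold changes of 0.02 at 12 h and 0.05 at 4 h on its brightest probe set, but its probe sets disagreed. One of the 4 others gave 611 and 424 in treated DCs, against 1355 and 996 in vehicle controls at 12 h, without overlap (log2 fold change -1.19, adjusted p = 0.112), and another had -0.68 with overlap (adjusted p = 0.886). On the probe sets used, *Trim30a*, *Parp9*, *Dtx3l* and *Ifi35* stayed within 0.13 of 0. Another probe set of *Trim30a* had a log2 fold change of 0.35 at 12 h, without overlap, and 0.14 at 4 h, with overlap. Another of *Ifi35* had 0.27 at 12 h and 0.20 at 4 h, without overlap. A further probe set of *Ifi35* lay at -0.03 and 0.02. Another of *Dtx3l* had 0.27 at 12 h and -0.19 at 4 h, each without overlap. None of these other probe sets passed the adjusted test. *Isg20*, an exonuclease for RNA, and *Xaf1* had overlapping groups at both times. *Parp14* had log2 fold changes of 0.10 at 12 h and 0.22 at 4 h, and *Rtp4* of 0.21 and 0.23.

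*Herc6*, the main E3 ligase that attaches ISG15 in mice, had log2 fold changes of 0.05 at 12 h and 0.02 at 4 h.

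On the probe sets used, a pair of genes lay lower in treated DCs at both times. They were *Trim25*, the E3 ligase that activates RIG-I, and *Bst2* (tetherin), which holds budding virions at the cell surface. *Trim25* gave 4064 and 4333 in treated DCs, against 4676 and 4879.8 in vehicle controls at 12 h and 4328 and 4109.7 in treated DCs, against 5183 and 4432 in vehicle controls at 4 h, and its average log2 fold change was -0.19 (adjusted p = 0.654). The other probe sets of *Trim25* disagreed. One had log2 fold changes of -0.31 at 12 h, without overlap, and -0.06 at 4 h, with overlap. Another had 0.01 at 12 h, with overlap, and 0.21 at 4 h, where the treated arrays lay higher without overlap. Neither passed the adjusted test. *Bst2* averaged -0.11 (adjusted p = 0.797).

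The chemokines CXCL9 and CXCL10 draw T cells through CXCR3. *Cxcl10* gave 873 and 724 in treated DCs, against 555 and 501 in vehicle controls at 12 h and 320.3 and 300.2 in treated DCs, against 215 and 261 in vehicle controls at 4 h, and its average log2 fold change was 0.49 (adjusted p = 0.387). Neither group reached the reference for *Cxcl9* at 4 h, and its fold there is left out. At 12 h it gave 107 and 109.8 in treated DCs, against 99.1 and 119 in vehicle controls.

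**Figure D4:**
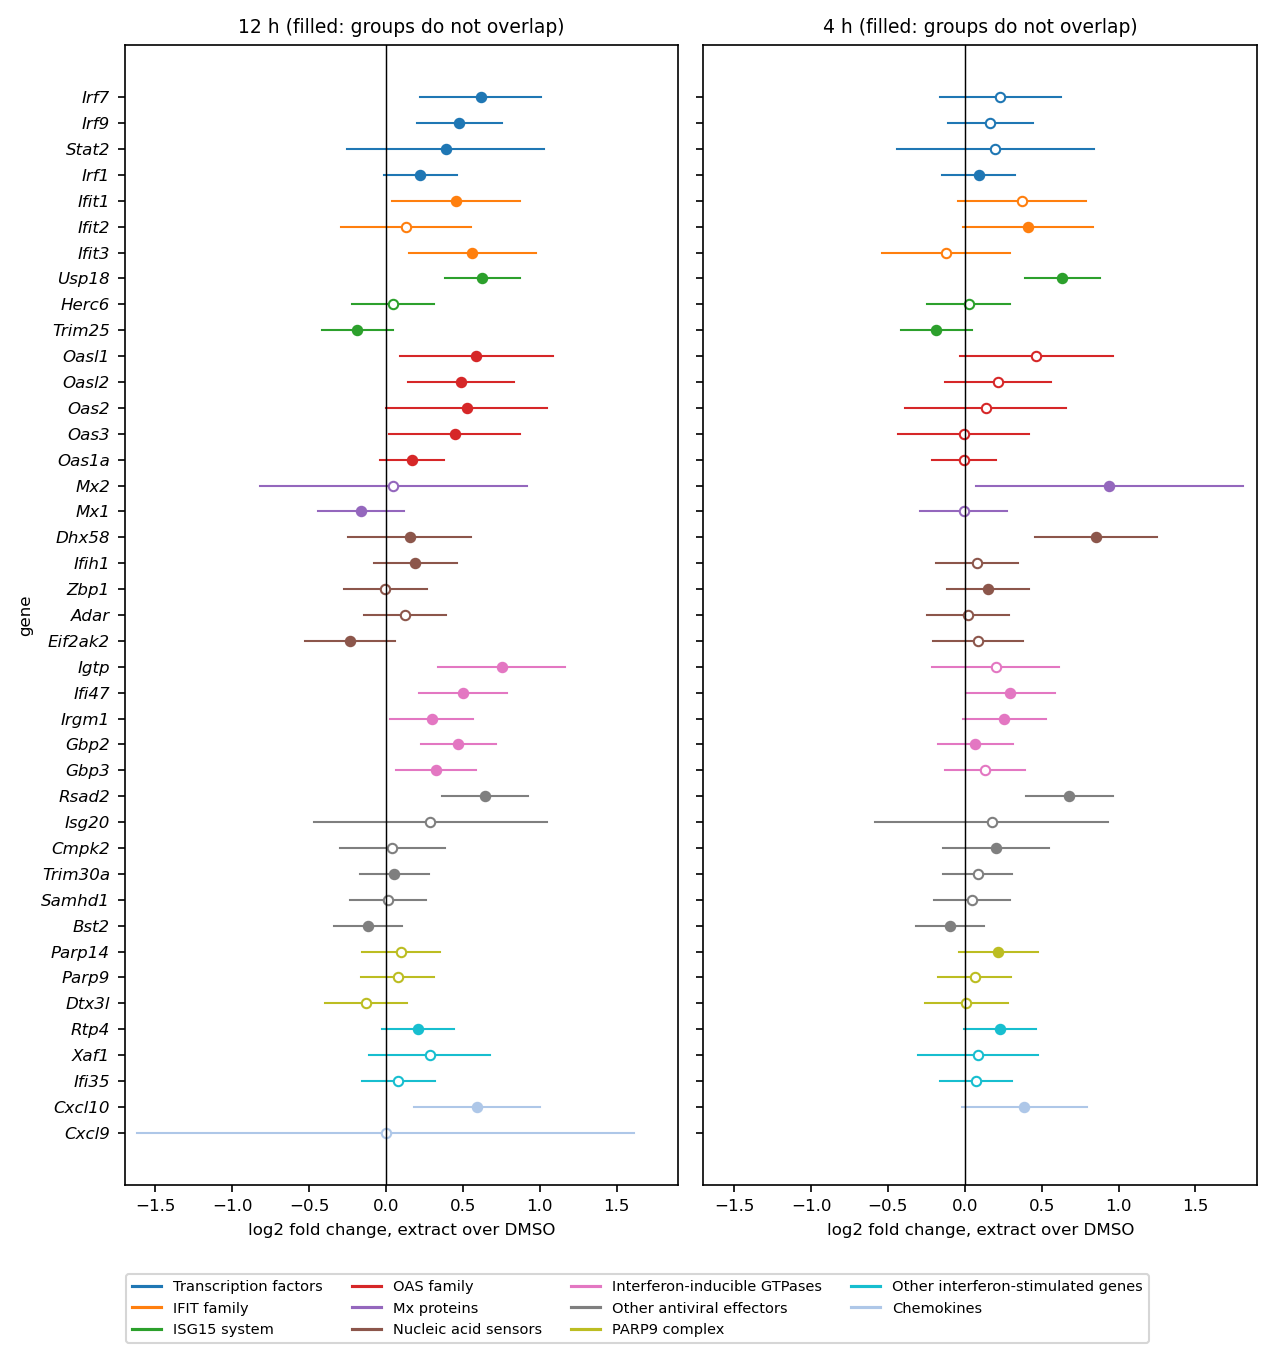
Log2 fold change of [BF/S+L/Ep] over DMSO with its 95% interval, at 12 h (left) and 4 h (right), for the 41 genes, coloured and ordered by role; filled points are genes whose arrays do not overlap between the groups. *Cxcl9* has no value at 4 h, and 23 genes at 12 h and 14 at 4 h have both treated arrays above both controls.

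The size of the effect was then compared between the times. No gene, and 0% of all probe sets, passed limma's adjusted test of the difference between the 12 h and the 4 h effect. At an unadjusted p under 0.05 the effect was larger at 12 h for 2 genes (1.69% of all probe sets), *Gbp2* and *Ifit3*, and smaller for 1 (1.97%), *Dhx58*. The difference of the log2 fold changes was 0.40 for *Gbp2* (95% interval 0.06 to 0.75), 0.69 for *Ifit3* (0.10 to 1.27) and -0.70 for *Dhx58* (-1.26 to -0.13). An effect at 12 h and not at 4 h is therefore not shown to differ between the times for any gene.

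Time itself moved single genes in both treatments, though the 41 genes had no common direction. Between 4 h and 12 h, 2 genes rose and 1 fell in treated DCs, where 1.55% of all probe sets rose and 1.31% fell. In vehicle controls 2 rose and 2 fell, with 1.18% and 0.921% of all probe sets. Of the 10857 genes above the reference, 391 rose and 381 fell in treated DCs, and 323 rose and 280 fell in vehicle controls. The median log2 fold change of 12 h over 4 h was 0.05 in treated DCs and -0.01 in vehicle controls.

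*Cxcl10* rose with time in both. Its signal at 12 h was 873 and 724 in treated DCs, against 320.3 and 300.2 at 4 h, and 555 and 501 in vehicle controls, against 215 and 261. The log2 fold change was 1.36 in treated DCs (adjusted p = 0.00142) and 1.15 in vehicle controls (adjusted p = 0.00587). The rise in vehicle controls missed the threshold without vehicle control replicate 1 at 4 h (adjusted p = 0.0718) or at 12 h (0.0776), while that in treated DCs passed with each array left out.

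*Irf1*, the factor whose window holds the GAS letters, gave 2097 and 2116 at 12 h in treated DCs, against 1399 and 1404 at 4 h (log2 fold change 0.59, adjusted p = 0.0109). In vehicle controls the log2 fold change was 0.46 (adjusted p = 0.0536). The call in treated DCs was lost without treated replicate 1 at 4 h (0.0625) or treated replicate 1 (0.0885) or 2 (0.0794) at 12 h, and with arrays centred on their medians (0.0852). *Mx1* rose in vehicle controls, with 12412 and 12902 at 12 h against 9088 and 7249.7 at 4 h (log2 fold change 0.64, adjusted p = 0.021). In treated DCs its log2 fold change was 0.49 (adjusted p = 0.0695). The call in vehicle controls was lost without vehicle control replicate 2 at 4 h (0.289) or replicate 1 (0.126) or 2 (0.161) at 12 h, and with centred arrays (0.196).

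*Rsad2* fell with time in both treatments on its main probe set. Its signal at 12 h was 1516 and 1483 in treated DCs, against 2525 and 2422 at 4 h (log2 fold change -0.72, adjusted p = 0.00844). In vehicle controls it was 872 and 1053 at 12 h, against 1421 and 1675 at 4 h (log2 fold change -0.69, adjusted p = 0.0138). A second probe set of the gene had 592 and 699.8 at 12 h in treated DCs, against 543 and 681 at 4 h, which overlap. With the mean of all probe sets of a gene the log2 fold change was -0.38 in treated DCs (adjusted p = 0.149) and -0.52 in vehicle controls (0.0545). The call in treated DCs was also lost without treated replicate 1 at 4 h (0.0719) or treated replicate 1 (0.0678) or 2 (0.0679) at 12 h, and that in vehicle controls without vehicle control replicate 2 at 4 h (0.197) or replicate 1 at 12 h (0.149). *Cmpk2* had a log2 fold change of -0.62 in treated DCs (adjusted p = 0.0621) and of -0.46 in vehicle controls (adjusted p = 0.218). *Oas1a* gave 3064 and 3006 at 12 h in vehicle controls, against 4409 and 4220 at 4 h (log2 fold change -0.51, adjusted p = 0.0151), a call lost when any of the 4 vehicle control arrays was left out (0.0961 to 0.149) and with centred arrays (0.0652). In treated DCs its log2 fold change was -0.33 (adjusted p = 0.102).

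**Figure D5:**
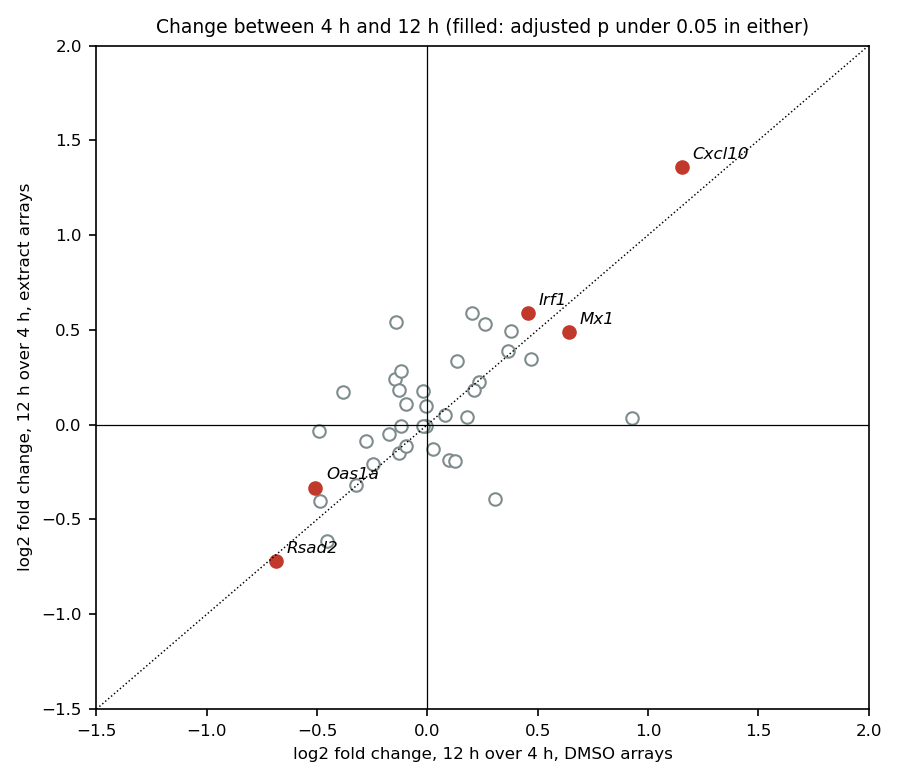
Log2 fold change of 12 h over 4 h in [BF/S+L/Ep]-treated DCs (vertical axis) against vehicle controls (horizontal axis), 1 point per gene for 40 genes without *Cxcl9*; filled points passed the test in either, and the dotted line marks equal change. *Cxcl10* is at 1.36 and 1.15, and *Rsad2* at -0.72 and -0.69.

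The genes that make, sense and carry interferon were read from 4 further lists. No gene of them passed limma's adjusted test of [BF/S+L/Ep] against DMSO at 12 h, at 4 h or on average. Of the 13 interferons and IFN-γ-inducing cytokines measured, 10 were not above the reference on 4 arrays, among them *Ifnb1* and *Ifng*, each on at most 1 array. *Ifnz*, *Il12b* and *Il18* were above it on all 8. The receptor and signalling list had 16 genes measured, with *Ifnar1* at 2039.8 and 2010.1 in treated DCs at 12 h, against 1848 and 2286 in vehicle controls. At an unadjusted p under 0.05, which 3.20% of all probe sets passed as higher and 3.88% as lower, the average was higher for 1 of the 16 and lower for none. In the list of genes that lead to interferon transcription 5 of 18 were higher and 2 lower, and in the list of further interferon-stimulated genes 13 of 78 were higher and none lower. The 13 include *Sp110* and *Cxcl11*, whose controls at 4 h were not above the reference. At 12 h, unadjusted, the receptor list had 1 higher, the induction list 3 higher and 2 lower, and the further genes 9 higher, beside 2.62% and 3.34% of all probe sets. At 4 h 1, 3 and 8 were higher and none lower, beside 2.49% and 2.48%. The interferon list had 0 at 12 h and on average, and 1 lower at 4 h, *Ifnab*, which was under the reference in every group. The median average log2 fold change of the receptor, induction and further lists was 0.05, 0.07 and 0.06.

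Among these, *Mavs*, the mitochondrial adaptor of RIG-I and MDA5, gave 870.4 and 983 in treated DCs, against 1471 and 1744 in vehicle controls at 12 h (log2 fold change -0.79, adjusted p = 0.113). On the brightest of its probe sets without the s or x suffix, which marks probe sets that can match several transcripts, that value was -0.24 (adjusted p = 0.887). *Ifitm1*, which blocks viral entry, gave 8426 and 8757 in treated DCs, against 6060.4 and 6380.5 in vehicle controls at 12 h, and averaged 0.41 (adjusted p = 0.121). *Ly6e* gave 2987 and 3132 in treated DCs, against 2285 and 2348 in vehicle controls at 12 h (log2 fold change 0.40, adjusted p = 0.414). *Sp110*, a nuclear body protein, gave 265 and 263 in treated DCs, against 134 and 133 in vehicle controls at 12 h (log2 fold change 0.99, adjusted p = 0.687). At 4 h it gave 190.3 and 149 in treated DCs, against 83.0 and 81.0 in vehicle controls, where both controls were under the reference, so no fold is given. This probe set has the x suffix, and on the brightest one without it the average log2 fold change was 0.02 (adjusted p = 0.993). *Cd274* (PD-L1) had a log2 fold change of 0.33 at 4 h (adjusted p = 0.964).

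Between 4 h and 12 h, 14 of the 125 genes measured on the 4 lists passed in treated DCs (11 higher, 3 lower, beside 1.55% and 1.31% of all probe sets). In vehicle controls 12 passed (9 higher, 3 lower, beside 1.18% and 0.921%). With each array left out in turn, 3 of the 14 passed every time, *Il12b*, *Ikbke* and *Helz2*, and 4 of the 12, these and *Ifitm6*. Every other call was lost without at least 1 array, and in treated DCs 6 and 10 genes passed without replicates 1 and 2 at 4 h, and 5 and 6 without replicates 1 and 2 at 12 h. In vehicle controls 6 and 4 passed without replicates 1 and 2 at 4 h, and 6 and 4 without those at 12 h. *Il12b*, the p40 subunit of IL-12, had 2190.2 and 2123 at 12 h in treated DCs, against 646 and 737 at 4 h (log2 fold change 1.64, adjusted p = 1.98e-05), and a log2 fold change of 1.60 in vehicle controls (adjusted p = 2.38e-05). *Ikbke*, a kinase that activates IRF3 and IRF7, rose by 1.33 on the log2 scale in treated DCs (adjusted p = 2.36e-05) and by 1.42 in vehicle controls (adjusted p = 1.46e-05). *Helz2*, *Epsti1*, *Ifi27*, *Ifitm6* and *Cd274* also rose and *Ifi27l2a* fell in both. *Socs3*, a feedback inhibitor of JAK kinases, *Slfn5* and *Gbp8* rose in treated DCs, with log2 fold changes of 1.31, 1.13 and 0.92. In vehicle controls these were 0.96, 0.46 and 0.79, which missed the threshold, and the differences between the treatments did not pass the test. *Mavs* fell in treated DCs (-0.65, adjusted p = 0.0239) and had -0.04 in vehicle controls (adjusted p = 0.954). That call was lost without any 1 of the 4 treated arrays (adjusted p = 0.0648 to 0.209), with centred arrays (0.0603), with the mean of its probe sets (log2 fold change -0.47, adjusted p = 0.0635) and on the brightest one without a suffix (-0.30, adjusted p = 0.369). *Socs3* was also lost on its brightest probe set without a suffix (0.80, adjusted p = 0.388), *Ly6e* likewise in vehicle controls (-0.81, adjusted p = 0.289), and *Slfn5* with the mean of its probe sets (0.87, adjusted p = 0.249). In vehicle controls *Irf8* rose by 0.50 on the log2 scale, and *Ly6e* and *Ifitm1* had log2 fold changes of -0.60 and -0.54.

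The measured genes were also set against the letters in their promoters. The 15 genes with an ISRE core had a median log2 fold change of 0.39 at 12 h and 0.08 at 4 h, and 13 of them had treated arrays above the controls without overlap at 12 h and 4 at 4 h. The 17 genes with a window but no ISRE core had medians of 0.13 and 0.09, and 6 of them did so at 12 h and 4 at 4 h, beside 16.6% of all genes above the reference at 12 h and 15.7% at 4 h. The 10 genes with GAS letters had medians of 0.13 and 0.08, against 0.42 and 0.15 in the 22 without. These are descriptions of a few genes in windows of 300 bases and were not tested.

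Further probe sets were available for 18 of the 41 genes. Of these 29 probe sets, 26 passed the reference on 4 arrays or more, and 19 of the 26 had an average log2 fold change above 0, with a median of 0.12. The median was 0.07 at 12 h and 0.08 at 4 h. For the average, only 16 of the 26 had the same direction as the probe set used for their gene. None passed the adjusted test for the average, and 1 passed with time, that of *Samhd1* with the difference at 12 h, in vehicle controls (log2 fold change 0.97, adjusted p = 0.0274).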

How the data were processed

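RNA of BMDCs in 4 groups was measured on 8 Affymetrix arrays, 2 per group. The intensity values are those the authors deposited: linear MAS5 signals of each probe set, each array scaled to a trimmed mean of 500 (2% off each end). For MAS5 the version was not given in the sources used here. Detection calls were left aside. The number of arrays limits the precision.

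Probe sets were named by the series' annotation (34945 of 45037 with 1 symbol, 932 with several, 9160 with none, 64 controls left out). In limma 3.58.1 (R 4.3.3), the 4 group means were fitted to the log2 signals with an intensity trend, residual df 4 and prior df 8.833. Contrasts were treatment at each time, their average and difference, and 12 h against 4 h in each treatment. Tests were two-sided, adjusted by Benjamini-Hochberg over all 45037 probe sets, with a threshold of 0.05 and 95% intervals; the script was tested on simulated data. Promoter windows came from RefSeq (GRCm38.p6). Figures used Python 3.11.15 and matplotlib 3.10.9.

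Members and lists were chosen with earlier results of these data known. The genes named were every member past the threshold in any comparison, the 4 smallest p in each, the 4 brightest, those under the reference, and pathway genes past the threshold (at most 10) or with the 3 smallest p in each comparison; others stand in role groups and were named after their values were seen. Alternatives were normalization, log2(signal + 50), a minimum number of arrays above the reference, moderation, the replicate number as a block, subsets of arrays, other probe sets of a gene, and each array left out.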

Additional observations from a re-analysis of the deposited data

How the results depend on the processing

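Neither treatment at 12 h or 4 h nor the difference between them gained a member under any of the alternatives tried, and the 3 medians of the treatment effect stayed above 0. Moderation without the intensity trend left 0 of the 2 members called for the average, 0 of 3 in treated DCs between the times and 0 of 4 in vehicle controls. Treated DCs had 5 members between the times after quantile normalization, and 5 with the fit limited to probe sets that passed the reference on 4 arrays, or on 2. Centring each array on its median left 2 in vehicle controls, moved the medians to 0.28 (12 h), 0.19 (4 h), 0.28 (average), -0.0065 (time, treated) and -0.083 (time, controls), and put both treated arrays above the controls at both times in 14 members. Averaging a gene's probe sets gave medians of 0.29 at 12 h and 0.11 for time in treated DCs. The cause was not tested.

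With each array left out, members called ranged between 0 and 2 for the average (0 without either vehicle control at 4 h, vehicle control replicate 1 at 12 h or treated replicate 2 at 12 h; 1 without either treated array at 4 h or treated replicate 1 at 12 h). For time they ranged between 1 and 4 in treated DCs (1 without treated replicate 1 at 4 h or either treated array at 12 h) and 0 and 4 in vehicle controls (0 without replicate 1 and 2 without replicate 2 at 12 h, 2 without replicate 1 and 1 without replicate 2 at 4 h). The medians ranged between 0.17 and 0.28 at 12 h, 0.17 and 0.24 for the average, 0.0505 and 0.21 for time in treated DCs, -0.059 and 0.026 in vehicle controls, and 0.028 and 0.073 for the difference. Counts without overlap, whose alternatives were chosen after seeing the data, were 23 to 24 at 4 h and 9 to 16 at both times, since 1 array is easier to clear than 2. Genes of the 4 further lists called with time numbered 6 in treated DCs and 6 in vehicle controls with centring, 0 and 0 without the intensity trend, and 7 in treated DCs from its 4 arrays alone, and 1 (*Ifitm1*) passed for the average after quantile normalization. With each array left out they numbered between 5 and 12, against 14, in treated DCs and between 4 and 12, against 12, in vehicle controls.

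Same-numbered arrays did not deviate together (correlations of 0.104, -0.014, 0.111 and -0.03 over the 4 pairs of groups). With the replicate number as a block, 2 members were called for the average, 4 for time in treated DCs and 4 in vehicle controls, including all of those called without it. Subsets limited to 1 time or 1 treatment were not available for the average and the difference. Signals near the reference limit *Cxcl9*, *Mx2*, *Isg20* and *Sp110*.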
